A study of Mus musculus with 8 samples.

Results

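The genes described here are the parathyroid hormone (PTH) receptor gene *Pth1r* and 9 genes of the cAMP-PKA pathway below it, namely *Gnas*, *Adcy3*, *Adcy6*, *Prkaca*, *Prkacb*, *Prkar1a*, *Prkar2a*, *Pde4d* and *Pde3b*. They were picked by symbol for their role in the pathway, and they are 10 of the 55401 genes listed for each kidney. RNA-Seq was performed on whole kidneys of 8 mice. The 4 controls (SIK1f/f;SIK2f/f,SIK3f/f) carried floxed alleles of 3 genes that encode salt-inducible kinases (SIKs), flanked by loxP sites, and per the study's methods, were littermates without Cre recombinase. The 4 SIK mutants carried the same floxed alleles and Six2-Cre per the labels, whereas the study's text describes mutants with 1 intact *Sik1* allele, and the group is therefore called SIK mutant. Six2-Cre acts in nephron progenitors and the epithelial cells that descend from them, so the collecting duct, the stroma, the vessels and blood-derived cells of these kidneys kept their *Sik* genes. Age, sex and litter are not given by the labels.

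PTH acts on proximal and distal tubule cells through *Pth1r*, a receptor coupled to the stimulatory G protein whose alpha subunit is encoded by *Gnas*. This subunit activates adenylyl cyclases, cAMP releases the catalytic subunits of protein kinase A (PKA) from the regulatory subunits, and phosphodiesterases degrade the cAMP. PKA in turn phosphorylates and restrains the SIKs, which otherwise hold CRTC coactivators of the transcription factor CREB in the cytoplasm. The comparison of controls with SIK mutants addresses whether loss of the kinases at the end of this cascade was accompanied by a change in the RNA of its upstream components.

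The kidneys held between 10798908 and 10925100 expected counts in controls and between 10179648 and 10875315 in mutants, which sets the limit that a count of 0 allows at 0.263 to 0.304 CPM (counts divided by the TMM-adjusted library size), for counting error only. None of the markers of proximal tubule (7 genes), thick ascending limb (3 genes), distal tubule (4 genes), collecting duct (6 genes) and podocytes (4 genes) was at 0 in any kidney. Controls 3 and 4 had summed CPM of 4 Y-linked genes of 0.0 and 0.175, against 76.8 to 94.9 in the other 6 kidneys, and they alone expressed *Xist* (260.5 and 298 CPM; 0.494 CPM or less in the rest). These 2 controls also stood apart on the first principal component, which held 37.1% of the variance. Results are therefore also given for 2 controls against 4 mutants, the 6 kidneys in which Y-linked reads were found, where that moved their value. As a check of the deletion, *Sik3* lay lower in all 4 mutants than in any control, at 62.9 ± 3.79 CPM in controls and 39.5 ± 4.10 CPM in mutants (SD, n = 4 each; edgeR FDR 0.0697). *Sik2* was at 9.14 ± 0.841 and 6.72 ± 2.07 CPM (edgeR FDR 0.794) with overlapping groups, and *Sik1* at 40.8 ± 2.84 and 50.6 ± 4.85 CPM (edgeR FDR 0.601) without overlap. These are counts over whole genes and not over the floxed exons.

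On a scale that corrects for transcript length (TPM), the 10 genes covered a wide range in the kidney. *Gnas* stood highest at a mean of 539 TPM over the 8 kidneys (484 to 595), followed by *Pth1r* at 296 TPM (246 to 331). The most abundant PKA subunit gene was *Prkar1a*, which encodes the type I alpha regulatory subunit, at 62.7 TPM (53.2 to 70.9). *Prkaca*, encoding the alpha catalytic subunit, was at 31.7 TPM, *Adcy6* at 21.2 TPM, *Prkacb*, encoding the beta catalytic subunit, at 15.1 TPM, and *Prkar2a*, encoding the type II alpha regulatory subunit, at 11.2 TPM. The ranges of neighbours among these 4 genes overlapped across kidneys. Within each kidney, however, *Prkaca* was the highest and *Prkar2a* the lowest of the 4. *Adcy6* was above *Prkacb* except in control 2 (12.71 and 12.86 TPM), so only the order of this pair is not fixed by these data. Among the low genes *Pde4d* was at 5.0 TPM (3.93 to 6.06), *Pde3b* at 2.42 TPM (1.33 to 3.81) and *Adcy3* at 0.785 TPM (0.38 to 1.31). For the other neighbouring pairs in this order, each range over the 8 kidneys lay clear of the next.

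**Figure D1:**
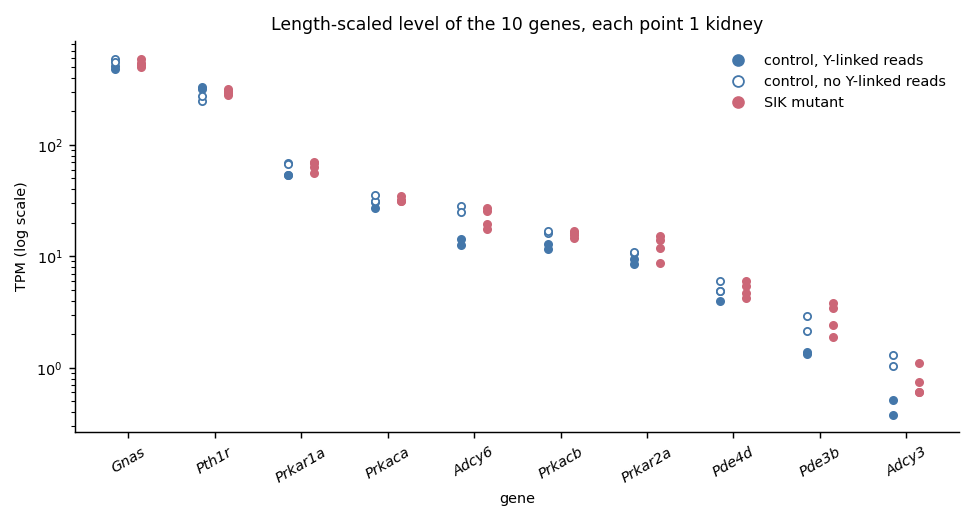
Length-scaled RNA level (TPM, log scale) of the 10 genes, ordered by their mean, with each point 1 kidney: filled blue for controls with Y-linked reads, open blue for controls without, red for SIK mutants. *Gnas* lies between 484 and 595 TPM and *Adcy3* between 0.38 and 1.31 TPM, and the 2 genotypes overlap for every gene.

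Over the 8 kidneys, no difference between SIK mutants and controls was detected for any of the 10 genes. In the 6 kidneys that had Y-linked reads, *Pth1r* was at a log2 fold change (SIK mutant minus control) of −0.33 beside −0.09 over 8, *Adcy6* at 0.40 beside −0.02 and *Pde3b* at 0.71 beside 0.33, and *Pth1r* passed an FDR of 0.05 in a fit with a Y-linked covariate, by DESeq2 and not by edgeR. With limma on log2(TPM + 1) of these 6 kidneys, *Pth1r* was at −0.11 (FDR 0.493), where the median of all genes was 0.17. With edgeR on 8 kidneys, 0 of 10 passed an FDR of 0.05 over the 14326 genes tested (background, 0.0% of all tested genes), and 0 of 10 had an unadjusted p under 0.05 (background, 6.36% or 911 genes, with 2.76% higher and 3.59% lower in mutants). The FDR of the 10 genes lay between 0.848 and 0.994. No gene had groups without overlap in CPM, a pattern that 4.03% of all tested genes showed. All 10 passed the filter on low counts. The log2 fold change was below 0 for 7 genes and above 0 for 3, with a median of −0.02 beside −0.0038 over all tested genes. On log2(TPM + 1) it was above 0 for 9 genes, with a median of 0.07 beside 0.09 over all genes, so the split in direction depends on the scaling.

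**Figure D2:**
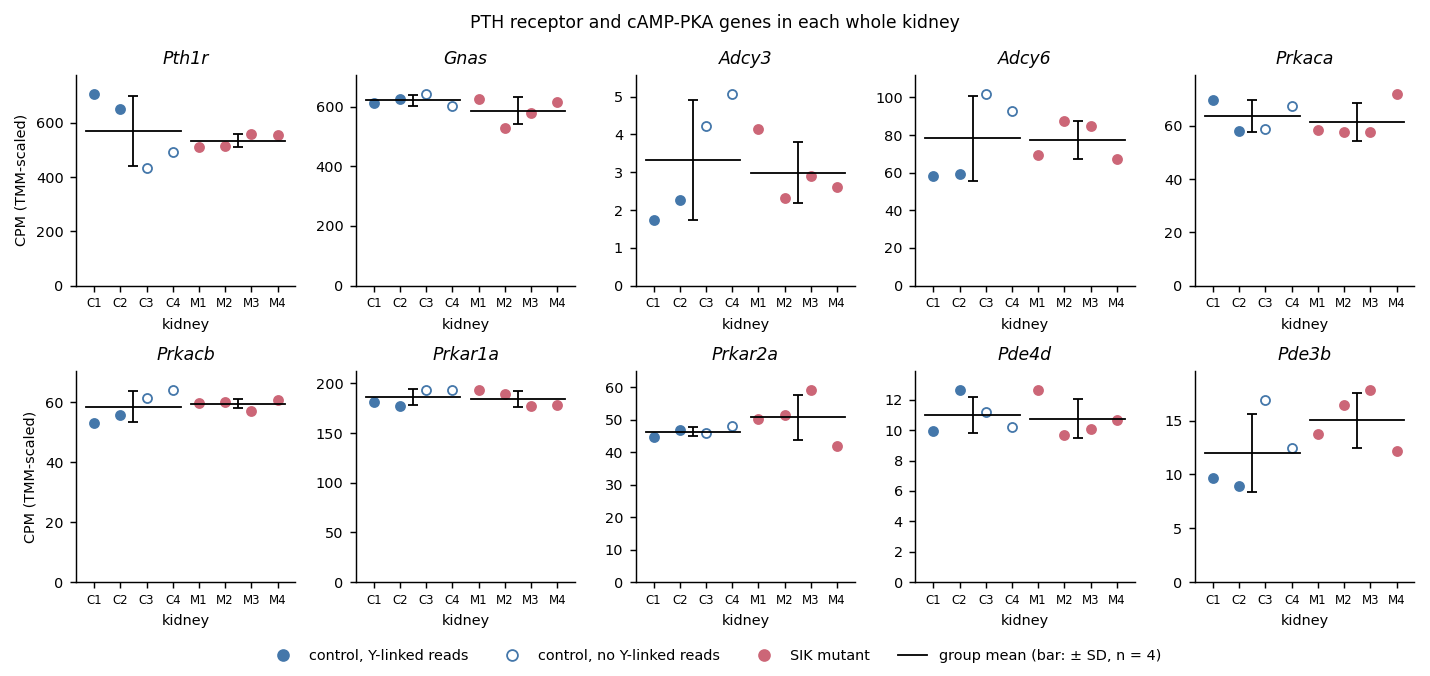
CPM of the 10 genes in each kidney (C1 to C4, controls; M1 to M4, SIK mutants), with the group mean as a line and a bar of ± SD (n = 4); open circles mark the 2 controls without Y-linked reads. In every panel the mutants overlap the controls; for *Pth1r* the 4 mutants (510.2 to 557 CPM) lie below the 2 filled control points and above the 2 open ones.

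*Pth1r* (ENSMUSG00000032492.14, chromosome 9, 110722085 to 110747145, GRCm38) encodes the receptor for PTH and PTH-related protein. It was at 707, 649, 435 and 491 CPM in controls 1 to 4 and at 510.2, 516, 557 and 554 CPM in mutants 1 to 4. The controls spread on both sides of the mutants, with controls 1 and 2 above and controls 3 and 4 below all 4 of them. The means were 570.4 ± 128 and 534 ± 24.7 CPM, a log2 fold change of −0.09 (95% interval −0.44 to 0.25; edgeR FDR 0.947; two-sided exact permutation p = 0.571). In percent, the interval ran from −26.3 to 19.1. Against controls 1 and 2 alone, the 2 with Y-linked reads as in all mutants, the log2 fold change was −0.33.

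*Gnas* (ENSMUSG00000027523.20, chromosome 2, 174284320 to 174346744) couples the receptor to adenylyl cyclase. Its controls were close together, with the highest 1.07-fold above the lowest, at 613, 625, 644 and 603 CPM, and was at 625, 529, 578 and 617 CPM in mutants. Mutants 2 and 3 were below all controls, while mutants 1 and 4 fell within the control range. The log2 fold change was −0.08 (interval −0.29 to 0.12; edgeR FDR 0.922), and the interval in percent ran from −18.0 to 9.02. *Gm20721*, a gene model on the opposite strand that overlaps *Gnas* exons, was at 293 to 376 CPM; the use of strand in counting is not given in the sources used here, and reads of this pair cannot be told apart without it. Their sum was 989 ± 23.0 CPM in controls and 921 ± 74.9 CPM in mutants (exact permutation p = 0.143, the groups overlapping).

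The adenylyl cyclases make cAMP. *Adcy6* (ENSMUSG00000022994.9, chromosome 15, 98589973 to 98610076), which encodes a calcium-inhibited cyclase of tubule cells, was at 58.5, 59.5, 102 and 93.0 CPM in controls and at 69.6, 87.6, 84.9 and 67.5 CPM in mutants. All 4 mutants lay between controls 1 and 2, which were lowest, and controls 3 and 4, which were highest. Its log2 fold change was −0.02 (interval −0.45 to 0.42; edgeR FDR 0.994) over 8 kidneys and turned to 0.40 against controls 1 and 2 alone. *Adcy3* (ENSMUSG00000020654.15, chromosome 12, 4133103 to 4213525), best known for its part in olfactory signalling, was near the lower end of what could be measured, with 17 to 58 expected counts a kidney. It was at 1.73, 2.27, 4.23 and 5.08 CPM in controls and at 4.15, 2.32, 2.91 and 2.60 CPM in mutants, again with the mutants between the 2 kinds of controls. The log2 fold change of −0.16 had the widest interval of the 10 genes, −0.96 to 0.64 (edgeR FDR 0.964), so a change of 1.5-fold in either direction lies within it. Genes on the opposite strand overlap both cyclases, *Cenpo* at up to 7.68 CPM for *Adcy3* and *Gm29331* at up to 13.7 CPM for *Adcy6*.

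In CPM, the 4 PKA subunit genes had coefficients of variation over all 8 kidneys of 4.02% to 10.8%. *Gnas* (5.93%) and *Pde4d* (10.7%) lay in the same range. In TPM *Prkar2a* spread more, at 11.2 ± 2.41 (SD, 8 kidneys). *Prkaca* (ENSMUSG00000005469.10, chromosome 8, 83972993 to 83996443) was at 69.7, 58.0, 58.9 and 67.6 CPM in controls and at 58.4, 57.6, 57.5 and 72.1 CPM in mutants. Mutants 1 to 3 were close together and mutant 4 was above all other kidneys. *Prkacb* (ENSMUSG00000005034.15, chromosome 3, 146729574 to 146812990) was at 53.0, 55.7, 61.4 and 64.1 CPM in controls and at 59.8, 60.2, 57.2 and 60.9 CPM in mutants, all 4 of which lay between controls 1 and 2 and controls 3 and 4. Their log2 fold changes were −0.05 (interval −0.28 to 0.18; edgeR FDR 0.961) and 0.02 (interval −0.16 to 0.21; edgeR FDR 0.978).

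*Prkar1a* (ENSMUSG00000020612.16, chromosome 11, 109649405 to 109669656), the regulatory subunit whose loss raises PKA activity in endocrine tumours, was at 182, 177, 193 and 193 CPM in controls and at 193, 189, 178 and 178 CPM in mutants. In CPM it had the smallest coefficient of variation of the 10 genes, 4.02%. The interval of the genotype difference in percent was −12.5 to 11.9 (log2 fold change −0.02; edgeR FDR 0.987). *Prkar2a* (ENSMUSG00000032601.13, chromosome 9, 108689314 to 108750436) was at 44.7, 46.8, 45.8 and 48.0 CPM in controls and at 50.3, 51.4, 59.1 and 41.9 CPM in mutants. Mutants 1 to 3 were above every control and mutant 4 was below every control. The log2 fold change was 0.13 (interval −0.10 to 0.36; edgeR FDR 0.891), and without mutant 4 it was 0.21 with an unadjusted edgeR p of 0.0386 (FDR 0.668).

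The phosphodiesterase genes encode enzymes that end the cAMP signal. *Pde4d* (ENSMUSG00000021699.17, chromosome 13, 108449948 to 109953461), of the cAMP-specific PDE4 family that PKA itself activates, was at 9.95, 12.6, 11.2 and 10.24 CPM in controls and at 12.6, 9.72, 10.1 and 10.7 CPM in mutants. The groups covered nearly the same range, with a log2 fold change of −0.03 (interval −0.32 to 0.26; edgeR FDR 0.986). *Pde3b* (ENSMUSG00000030671.9, chromosome 7, 114415281 to 114539251), known best as the insulin-regulated phosphodiesterase of adipocytes, was at 9.64, 8.89, 16.9 and 12.4 CPM in controls and at 13.8, 16.4, 17.8 and 12.1 CPM in mutants. All 4 mutants were above controls 1 and 2, while control 3 was above 3 of the mutants. It had the largest difference of the 10 genes, a log2 fold change of 0.33 (interval −0.15 to 0.80; edgeR FDR 0.848; exact permutation p = 0.229), and control 3 moved it most, to 0.54 without that kidney (unadjusted edgeR p 0.015, FDR 0.711).

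**Figure D3:**
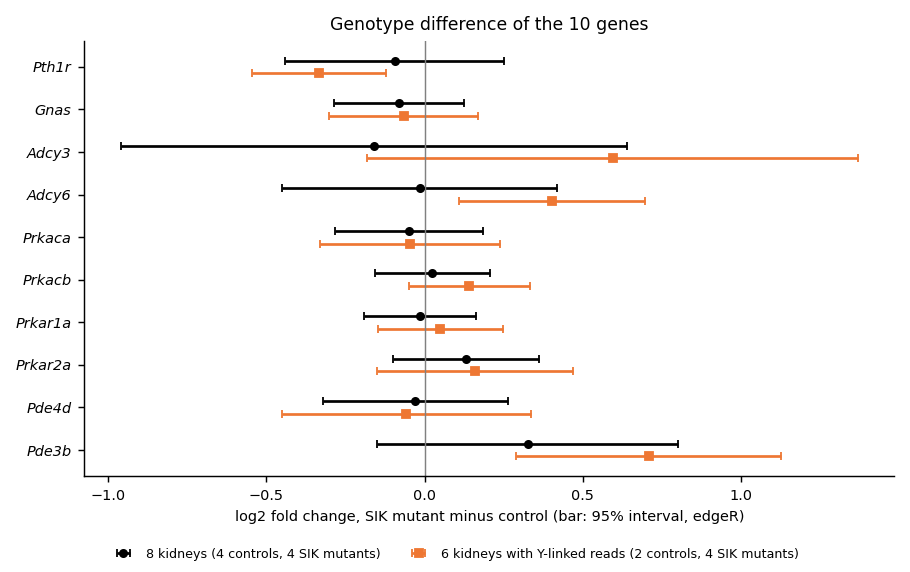
Log2 fold change (SIK mutant minus control) of the 10 genes with 95% intervals from edgeR, in black for all 8 kidneys and in orange for the 6 kidneys with Y-linked reads. Every black interval includes 0; the orange intervals of *Pth1r* (−0.55 to −0.12), *Adcy6* (0.11 to 0.70) and *Pde3b* (0.29 to 1.13) do not.

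The 2 kinds of controls did not overlap for 6 of the 10 genes, namely *Pth1r*, *Adcy3*, *Adcy6*, *Prkacb*, *Prkar1a* and *Pde3b*. This was true of 59.7% of all tested genes, so the share among the 10 genes is near the background. For 4 of them (*Pth1r*, *Adcy3*, *Adcy6*, *Prkacb*) all 4 mutants lay between both kinds of controls, a position held by 4.21% of all tested genes. For *Adcy3* the margins were small, with mutant 1 at 4.15 beside control 3 at 4.23 CPM. Mutant 2 was at 2.32 beside control 2 at 2.27 CPM. *Pth1r* was higher in the controls with Y-linked reads (mean 678 CPM) than in those without (463 CPM), whereas *Adcy6* (59.0 and 97.5 CPM), *Adcy3* (2.0 and 4.65 CPM), *Prkacb* (54.3 and 62.7 CPM) and *Pde3b* (9.27 and 14.7 CPM) were lower. With 2 controls of each kind this is a description and was not tested.

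Among the 6 kidneys with Y-linked reads, which share their mutants and 2 of their controls with the comparison above, 0 of 10 genes passed an edgeR FDR of 0.05 (background, 0.143%) and 3 of 10 had an unadjusted p under 0.05 (background, 11.1%, with 6.4% higher and 4.74% lower in mutants). *Pth1r* had a log2 fold change of −0.33 (interval −0.55 to −0.12; −20.6%), with an unadjusted edgeR p of 0.00642 and an FDR of 0.284. *Adcy6* was at 0.40 (interval 0.11 to 0.70), with an unadjusted edgeR p of 0.0133 and an FDR of 0.339. *Pde3b* was at 0.71 (interval 0.29 to 1.13), with an unadjusted edgeR p of 0.00428 and an FDR of 0.258. For 5 of 10 genes the 2 controls and 4 mutants did not overlap, against 21.8% of all genes. The other 7 genes had intervals that included 0, with *Gnas* at −0.07 and *Prkaca* at −0.05.

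Of the 10 genes, *Pth1r* alone passed an FDR of 0.05 in any of the 20 alternatives. With the mean Y-linked level as a covariate, DESeq2 gave a log2 fold change of −0.35 at an FDR of 0.0471 (background, 1.14%), and edgeR gave −0.35 at an FDR of 0.222 (background, 0.105%). DESeq2 on the 6 kidneys gave −0.34 at an FDR of 0.0778 (background, 1.15%). Over all alternatives its FDR ran from 0.0471 to 0.9999. The genes with an unadjusted p under 0.05 were *Pth1r*, *Adcy6* and *Pde3b* in each of these fits too. Beside them stood 12.0% of all genes with edgeR and the covariate (1722 of 14326). With DESeq2 it was 5.77% with the covariate (1457 of 25241) and 5.47% on the 6 kidneys (1333 of 24382). The DESeq2 fits had no filter on low counts, so their shares, also those past the FDR, are of other sets of genes than edgeR's. Since all 4 mutants had Y-linked reads, each of these values rests on controls 1 and 2.

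The size of the *Pth1r* difference depended on the scaling. In TPM it was at 331 and 316 in controls 1 and 2 and at 292, 307, 318 and 282 in the mutants, so these groups overlapped. With limma on log2(TPM + 1) of the 6 kidneys its log2 fold change was −0.11 (interval −0.30 to 0.08; FDR 0.493), where the median of all genes was 0.17, and thus −0.28 relative to that median. There 0 of 10 genes passed an FDR of 0.05 (background, 0.272%) and 4 of 10 (*Adcy6*, *Prkacb*, *Prkar1a* and *Pde3b*) had an unadjusted p under 0.05 (background, 15.3%). *Adcy6* was at 0.67 and *Pde3b* at 0.70, or 0.50 and 0.53 relative to the median.

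The summed CPM of 7 proximal tubule markers, none at 0 in any kidney, was 11183 and 11564 in controls 1 and 2, 8262 and 8777 in controls 3 and 4, and 8018 to 9642 in the mutants. Mutants 1 and 2 had sums below those of controls 3 and 4, unlike their *Pth1r* levels. The markers did not move together, since *Slc34a1* (6321 and 6850.0 CPM in controls 1 and 2, 4144 and 4709 CPM in controls 3 and 4) and *Slc22a6* (1523 and 1347, then 415 and 429 CPM) stood higher in controls 1 and 2, whereas *Lrp2* (1465 and 1415, then 1628 and 1719 CPM) and *Cubn* (337 and 373, then 385 and 439 CPM) stood lower. Between genotypes, 1 of the 7 markers, *Slc5a2*, had an unadjusted edgeR p under 0.05. It was at 454, 555, 471 and 535 CPM in controls and at 316, 315, 319 and 321 CPM in mutants. The log2 fold change of *Slc5a2* was −0.67 (unadjusted edgeR p 4.9e-05), and its 2 kinds of controls overlapped. The other markers overlapped between genotypes. The part of tubule content in the *Pth1r* difference was not tested. In whole kidney, fewer cells of a type and less RNA per cell cannot be told apart.

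Controls 1 and 2, which were lowest in *Pde3b*, were also lowest in markers of adipocytes. The summed CPM of 7 adipocyte markers was 0.0, 4.05, 221 and 34.9 in controls and 132, 118, 156 and 201 in mutants. All 7 markers, including *Adipoq*, *Plin1* and *Cidec*, were at 0 in control 1, and 2 of 7 (*Lep* and *Retn*) were at 0 in control 2. Over the 8 kidneys 0 of the 6 markers tested had an unadjusted edgeR p under 0.05. Their log2 fold changes were nevertheless all above 0, from 0.40 (*Ucp1*) to 1.81 (*Retn*), with a wide spread among controls. In the other kidneys the order differed, since mutant 4 had the highest marker sum of the mutants and the lowest *Pde3b* (12.1 CPM), below control 4 with its sum of 34.9. The part of adipocyte RNA in the *Pde3b* difference was not tested.

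**Figure D4:**
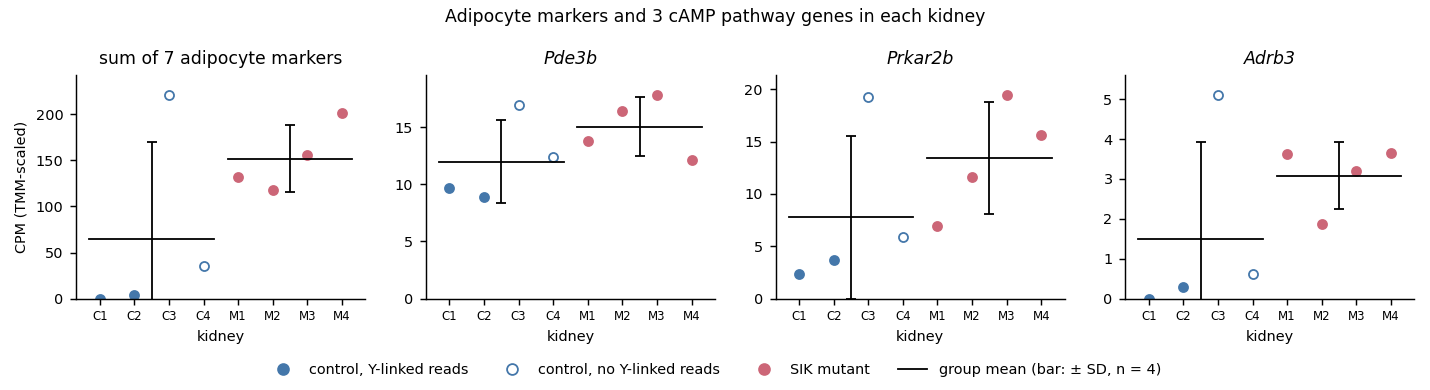
Summed CPM of 7 adipocyte marker genes and CPM of *Pde3b*, *Prkar2b* and *Adrb3* in each kidney (C, control; M, SIK mutant), with group means and bars of ± SD (n = 4, drawn only down to 0). Controls 1 and 2 are lowest and control 3 lies within or above the mutants in the marker sum and in all 3 genes.

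Within gene families, the share that each gene held of the family's TPM was set side by side to see whether usage shifted between isoforms. *Prkaca* held 68.4 ± 2.87% of the PKA catalytic TPM in controls and 67.1 ± 2.21% in mutants. *Prkar1a* held 80.9 ± 2.26% and 76.8 ± 3.52% of the regulatory TPM, the largest difference of the 5 shares. Of the same TPM, *Prkar2a* held 12.0% to 16.3% and *Prkar2b*, a gene of adipose tissue and brain, 1.09% to 8.55% over the 8 kidneys. The part of adipocyte RNA in this share was not tested. *Adcy6* held 76.3 ± 3.33% and 75.7 ± 3.49% of the summed TPM of the membrane cyclases *Adcy1* to *Adcy9*. *Pde3b* held 82.9 ± 4.58% and 84.1 ± 7.99% of the PDE3 TPM, whereas *Pde4d* held only 15.9 ± 1.31% and 15.3 ± 2.63% of the PDE4 TPM, of which *Pde4c* held 67.8% over the 8 kidneys (SD, n = 4 a group). All 5 shares overlapped between the groups, with two-sided exact permutation p-values of 0.114 for *Prkar1a* and 0.514 to 0.8 for the others (0.571 to 0.8 after adjustment over the 5 shares).

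The abundance-weighted transcript length, which shifts when RSEM assigns reads to other isoforms, was the same in all kidneys for *Prkaca* (2276 bases) and differed by under 3% between kidneys for *Pth1r*, *Gnas*, *Prkacb* and *Prkar1a*. It varied more for *Adcy3* (4348 to 4680 bases), *Adcy6* (3922 to 4678 bases, longest in control 2) and *Pde4d* (2152 to 2865 bases). For *Pde3b* it was 6573 bases in all 4 controls and in mutant 4, and 6508, 5661 and 5454 bases in mutants 1, 2 and 3. For *Prkar2a* mutant 2 stood at 4109 bases and the other kidneys between 4907 and 4965 bases. No length separated the groups (exact permutation p between 0.143 and 1.0, unadjusted, over 10 genes).

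The promoters of these genes were searched for the cAMP response element, the DNA sequence that CREB binds at the end of the cascade. Windows from 250 bases before to 50 bases after each start site came from RefSeq (GRCm38.p6) and matched 8 of the 10 genes, with *Adcy6* and *Pde3b* unmatched. The full element TGACGTCA, searched on both strands, was in the windows of 1 of 8 genes, *Prkar1a* (2.03% of all genes). This element was in 2 of 22 windows (1.79% of all windows), both of that gene. Its core TGACG, which is part of the full element, was in the windows of 6 of 8 genes on either strand (23.0% of all genes), with *Adcy3* and *Pde4d* the exceptions. The 8 genes have 22 windows in all, and 10 of them held the core (20.8% of all windows). The 27025 genes of the background have 32851 windows, fewer a gene, so the shares of genes are not like for like. Of the genes with a match, the receptor, the G protein and the PKA subunit genes are printed here with 1 site a gene, since they form the path from PTH to CREB. Each line gives 30 bases of the gene's own strand, 5′ to 3′, with the element in capitals and CGTCA marking the core on the other strand.
*Pth1r*, chr9:110747289-110747318, minus strand: aagggcgaggggCGTCAactgaggcagagg
*Gnas*, chr2:174327699-174327728, plus strand: aagaggttggggCGTCAtcaggctggttag
*Prkaca*, chr8:83972960-83972989, plus strand: gggctgcgggggCGTCAcggacagaggact
*Prkacb*, chr3:146813031-146813060, minus strand: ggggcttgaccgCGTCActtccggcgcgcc
*Prkar2a*, chr9:108692127-108692156, plus strand: cgcggccgcgtgCGTCAcaacccgggcgcc
*Prkar1a*, chr11:109650882-109650911, plus strand: ggccagagcgaggcgcatTGACGTCAgcag
The *Prkar1a* element begins 38 bases past its window's start site, and the *Pth1r* core begins at position −161 from its own. A match is a description of the letters and not of binding. *Prkar1a*, which holds the full element, had the smallest coefficient of variation between kidneys in CPM. In TPM it did not, at 62.7 ± 7.25 beside 539 ± 39.7 for *Gnas* (SD, 8 kidneys). A link between the element and this variation was not tested.

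A wider list of 85 genes of the pathway gave the setting of these 10. Of the 85, 73 passed the filter on low counts and 12 did not, among them *Pth2r*, the second PTH receptor gene, which was at 0 in every kidney. With edgeR 0 of 73 passed an FDR of 0.05 (lowest 0.456), 4 had an unadjusted p under 0.05 (5.48%, beside 6.36% of all tested genes), 2 higher and 2 lower, and 3 had groups without overlap (4.11%, beside 4.03%). The median log2 fold change was 0.04. Unadjusted calls were 0 of 11 among receptors, arrestins, receptor kinases and scaffolds of the PTH receptor, 1 of 8 among other Gs-coupled receptors and 0 of 7 among G protein alpha subunits. They were also 0 of 7 among cyclases, 0 of 8 among PKA subunits and inhibitors, 0 of 10 among A-kinase anchors, 3 of 15 among phosphodiesterases and 0 of 7 among other effectors and nuclear factors.

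The lowest unadjusted p of the list belonged to *Gcgr*, the glucagon receptor gene, which was at 21.9, 25.7, 26.2 and 28.6 CPM in controls and at 19.9, 16.9, 19.3 and 20.3 CPM in mutants. All mutants were below all controls, with a log2 fold change of −0.43 (SE 0.107; unadjusted edgeR p 0.00275, FDR 0.456) and of −0.31 among the 6 kidneys. *Pde4b*, a PDE4 gene like *Pde4d*, was at 8.93, 10.3, 10.8 and 12.7 CPM in controls and at 16.2, 13.2, 12.8 and 13.8 CPM in mutants, again without overlap (log2 fold change 0.39; unadjusted edgeR p 0.0178, FDR 0.713), and its value among the 6 kidneys was 0.55. *Pde2a*, encoding a cGMP-stimulated phosphodiesterase, was at 30.4 and 18.0 CPM on average with overlapping groups (log2 fold change −0.75; unadjusted edgeR p 0.0328, FDR 0.754), and at −0.30 among the 6 kidneys. The summed CPM of 4 endothelial markers, a cell type that also expresses *Pde2a*, was 145 to 222 in controls and 143 to 204 in mutants, and its part in this difference was not tested. *Pde1c* was at 2.01 and 3.93 CPM (log2 fold change 0.96; unadjusted edgeR p 0.0441, FDR 0.768), with mutant 3 at 7.65 CPM. *Gnaq*, whose product couples the PTH receptor to phospholipase C, had groups without overlap at 40.2 and 44.7 CPM (log2 fold change 0.15; unadjusted edgeR p 0.0764, FDR 0.794).

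**Figure D5:**
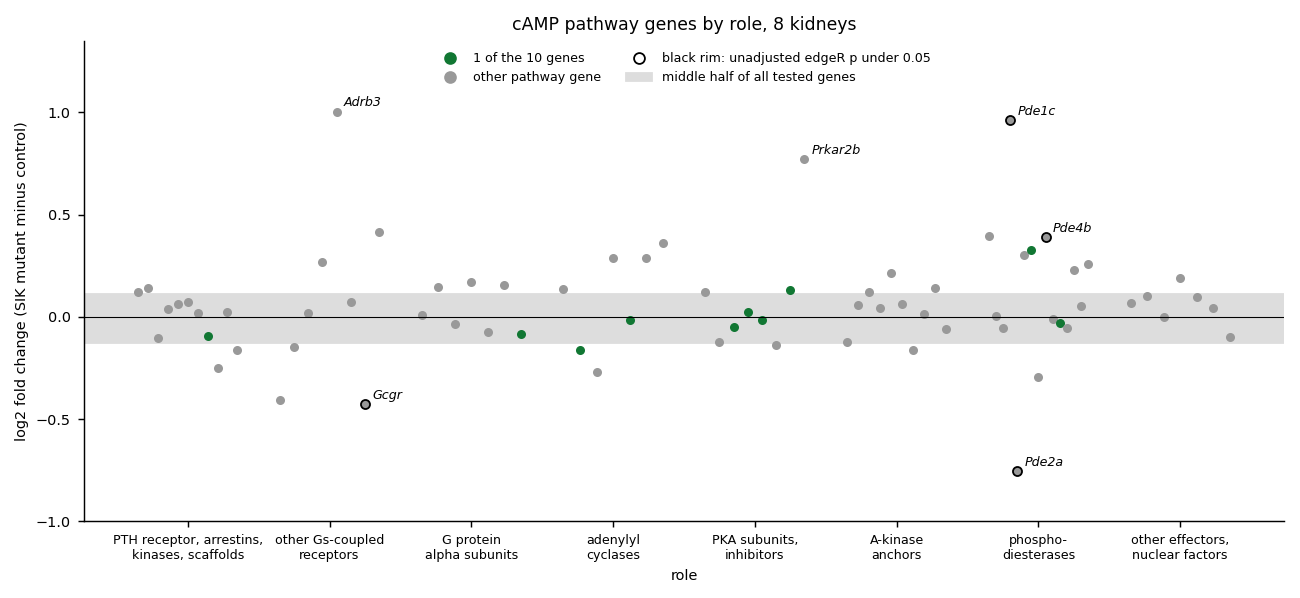
Log2 fold change (SIK mutant minus control, 8 kidneys) of the 73 tested pathway genes by role, in green for the 10 genes and in grey for the others; black rims mark an unadjusted edgeR p under 0.05 and the grey band holds the middle 50% of all tested genes. The 4 rimmed points are *Gcgr*, *Pde2a*, *Pde4b* and *Pde1c*, and none is green.

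Among the 6 kidneys with Y-linked reads, 15 of 75 tested pathway genes had an unadjusted p under 0.05 (20%, beside 11.1% of all tested genes), 13 higher and 2 lower in mutants, and 0 passed an edgeR FDR of 0.05. The 2 lower genes were *Pth1r* and *Gcgr*. The 2 genes with the lowest FDR, named after their values were seen, were *Adrb3*, the beta-3 adrenergic receptor gene of adipocytes (edgeR FDR 0.0851), and *Prkar2b*, the PKA regulatory subunit gene of adipose tissue and brain (FDR 0.132). *Adrb3* was at 0, 0.296, 5.11 and 0.613 CPM in controls and at 3.62, 1.87, 3.20 and 3.66 CPM in mutants, so that the 2 controls of this comparison were at or under the limit for a count of 0. *Prkar2b* was at 2.33, 3.66, 19.3 and 5.87 CPM in controls and at 6.97, 11.6, 19.5 and 15.7 CPM in mutants. Both were lowest in controls 1 and 2, as were the adipocyte marker sums, and the part of adipocyte RNA in these differences was not tested either. *Creb1*, which encodes CREB, was also higher there, by 0.42 (unadjusted edgeR p 0.00635, FDR 0.284), and by 0.10 over 8 kidneys (FDR 0.944).

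Among the genes whose log2 CPM most resembled that of *Pth1r* over the 8 kidneys, of 14128 compared, were *Hacd2* (Pearson's r = 0.98), *Car4* (0.98), *Khnyn* (0.98) and *Abhd10* (0.98). Among the 6 kidneys with Y-linked reads, r was 0.97 for each of these 4 genes. *Car4*, encoding the membrane-bound carbonic anhydrase of the proximal tubule, was at 251 and 231 CPM in controls 1 and 2, at 105 and 118 CPM in controls 3 and 4, and at 129 to 176 CPM in the mutants. As for *Pth1r*, the mutants lay between the 2 kinds of controls. These values share libraries, normalisation and the same controls, and are given as a description.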

How the data were processed

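RNA-Seq was analysed from whole kidneys of 4 control and 4 SIK mutant mice, grouped by sample titles and genotypes. Per the submitters' processing notes, reads were aligned to mm10 with STAR 2.7.2b and quantified with RSEM 1.3.0, and DESeq2 is also listed; the annotation and the use of strand are not given in the sources used here. The authors deposited, per kidney, RSEM expected counts (estimated reads per gene, not normalised) and TPM (scaled to transcript length and library total). The transcript lengths deposited by the authors are other RSEM values. Gene IDs were matched to GENCODE M21, 54349 of 55401 with their version and 55141 without it.

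Expected counts were rounded and tested with edgeR 4.0.16 (quasi-likelihood F test; R 4.3.3; TMM, filterByExpr, legacy = TRUE), with Benjamini-Hochberg adjustment over 14326 genes. Fold change intervals are 95% and use the test's moderated degrees of freedom. Single values were compared by exact permutation (two-sided) over 70 assignments, whose smallest p is 0.0286. The labels do not say that replicates came from separate litters or batches, so p-values measure the spread between these 8 kidneys. No 2 libraries of a group agreed within sampling noise.

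Alternatives were RLE factors, DESeq2 1.42.0, limma 3.58.1 on log2(TPM + 1), 2 other filters, the 6 kidneys with Y-linked reads, a Y-linked covariate, a replicate block, legacy = FALSE and each kidney left out. DESeq2 on the 6 kidneys and with the covariate, and limma on the 6 kidneys, were added after seeing the data. The statistics were tested on simulated data of 4 controls against 4 SIK mutants. An FDR of 0.05 was passed by 23.9% of genes changed 1.5-fold, 83.3% changed 2-fold and 92.3% changed 4-fold. Of the unchanged genes 0.0501% passed. At this FDR changes of 1.5-fold would thus mostly be missed over all genes. The simulation pooled genes of all levels, with 67 changed 1.5-fold, and does not give the power for each of the 10 genes. Their intervals over 8 kidneys differed, from −12.5 to 11.9% for *Prkar1a*, the narrowest, to −48.6 to 55.8% for *Adcy3*. The 10 genes, the pathway list and the marker lists were chosen with earlier results of these data known. All 10 genes are named, as are pathway genes of at least 1 CPM with an unadjusted p under 0.05 or without overlap, and the 5 genes most like *Pth1r*, of which 1 is not reported here.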

Additional observations from a re-analysis of the deposited data

Results flagged for a closer look

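*Prkaca* in SIK mutant 4 was at 72.1 CPM, while the other 3 mutants lay between 57.5 and 58.4 CPM. The gap between this kidney and the nearest other was 0.938 of the range of the group, above Dixon's 95% critical value for 4 samples. It was the only such value among the 40 groups of 4 kidneys examined (members, named pathway genes and family shares), and chance alone flags about 2 in 40.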

How the results depend on the processing

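Over 20 alternatives the 10 genes gave 199 log2 fold changes, of which 160 kept the sign over 8 kidneys and 39 did not; *Prkar2a* and *Pde3b* kept it throughout, and a filter at a mean of 50 counts left out *Adcy3*. On log2(TPM + 1) the values with the other sign were *Pth1r* 0.0476, *Gnas* 0.012, *Adcy6* 0.208, *Prkaca* 0.0545, *Prkar1a* 0.0924 and *Pde4d* 0.04996. On the same scale in the 6 kidneys, where the median of all genes was 0.17, they were *Gnas* 0.118, *Adcy3* 0.277, *Adcy6* 0.674, *Prkaca* 0.16, *Prkar1a* 0.261 and *Pde4d* 0.17. With edgeR in the 6 kidneys they were *Adcy3* 0.59, *Adcy6* 0.40 and *Prkar1a* 0.0494 (DESeq2, 0.59, 0.40 and 0.0442), and with the Y-linked covariate 0.60, 0.40 and 0.0394 (DESeq2, 0.60, 0.40 and 0.0412). The *Adcy6* share of cyclase TPM differed by 0.787 percentage points in the 6 kidneys and by −0.589 in all 8. The 0 genes past FDR 0.05 became 9 with no filter, 1 with legacy off, 4 with limma, 71 with DESeq2, 21 in the 6 kidneys (DESeq2, 183; limma, 39) and 15 with the covariate (DESeq2, 193). The 911 genes at an unadjusted p under 0.05 became 1640 in the 6 kidneys (limma, 2196) and 1722 with the covariate (DESeq2, 1457). Among the 10 genes 3 had such a p in the 6 kidneys and with the covariate, by edgeR and DESeq2 alike (limma in the 6 kidneys, 4), and 1 (*Pth1r*) passed the FDR with DESeq2 and the covariate. Among pathway genes the 4 became 15 in the 6 kidneys (DESeq2, 10; limma, 21) and 14 with the covariate (DESeq2, 11). Leaving out each kidney in turn gave 0 to 1 genes past FDR 0.05, 593 to 1181 at an unadjusted p under 0.05, 0 to 1 of the 10 genes and 3 to 6 pathway genes. The log2 fold changes then ran from −0.204 to 0.0249 for *Pth1r*, −0.112 to −0.0343 for *Gnas*, −0.37 to 0.12 for *Adcy3*, −0.13 to 0.14 for *Adcy6*, −0.14 to −0.0026 for *Prkaca*, −0.0208 to 0.0703 for *Prkacb*, −0.0381 to 0.0027 for *Prkar1a*, 0.048 to 0.21 for *Prkar2a*, −0.115 to 0.0428 for *Pde4d* and 0.21 to 0.54 for *Pde3b*. The share differences ran from −2.37 to 0.0579 points for *Prkaca*, −5.46 to −2.67 for *Prkar1a*, −1.82 to 0.982 for *Adcy6*, −1.41 to 0.312 for *Pde4d* and −2.05 to 4.46 for *Pde3b*. The replicate block gave 0 genes past FDR 0.05, 657 at an unadjusted p under 0.05, 0 of the 10 genes, 3 pathway genes and an *Adcy6* value of 0.0194. Same-numbered kidneys did not deviate together (correlations of −0.156, 0.0531, 0.0427 and −0.288), and not every kidney correlated best with its own number. No pairing by number was thus seen. The check cannot exclude it, since the controls deviate in part by their split over Y-linked reads, which the mutants do not share. The causes of these changes were not tested. Of the 911 genes 43.5% were higher in mutants, against 86.1% of those called on log2(TPM + 1). Depth limited *Adcy3*, *Pde4d* and *Pde3b* most, with as few as 17, 98 and 90 expected counts in a kidney.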
